A study of Mus musculus with 96 samples.

Results

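The region described here is chromosome 4 of the mouse from 131 to 143 Mb in the mm9 build, a 12 Mb stretch on the centromeric side of an engineered deletion in band 4E2. It was defined as all HindIII fragments that end from position 131000001 to 143000000, which gave 3013 of the 48320 HindIII fragments of chromosome 4 (6.24%). They overlapped 370 annotated genes, of which 216 were protein-coding. In PE-4Cseq, chromatin is cross-linked, cut with HindIII and ligated, and paired-end reads then count the fragments that became joined to 1 chosen fragment, the viewpoint. A captured fragment had at least 1 read. All 12 viewpoints lay telomeric to the region. Viewpoints 1 and 2 (147.9 and 148.9 Mb) lay upstream of the deletion, viewpoints 3 to 10 (150.4, 150.9, 151.6, 152.1, 152.4, 152.9, 153.4 and 153.9 Mb) inside the deleted interval, and viewpoints 11 and 12 (154.9 and 155.5 Mb) downstream of it.

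The cells were mouse embryonic fibroblasts (MEFs) at passage 4, grown to confluence. All lines had 1 copy of chromosome 4 from 129S5SvEvBrd and 1 from C57BL/6J. Embryos with the deletion came from crosses between a chimeric Df/Dp male and C57BL/6J. For the undeleted controls the paper names the cross only by its genotype. Lines E71 and E98 carried the deletion on the 129S5 copy, called Df, and their intact C57Bl6 copy is called +DBl6. Lines E117 and E118 were undeleted controls with the copies +129 and +Bl6. Reads were given to an allele by a strain polymorphism in the viewpoint read. Df was used only at viewpoints 1, 2, 11 and 12, because the other viewpoints are missing from that chromosome. Left out were 2 nearly empty libraries, and 6 pairs of libraries taken to share captured molecules were summed. This left 72 libraries, 22 of +129, 22 of +Bl6, 20 of +DBl6 and 8 of Df. The +129 and +Bl6 libraries of 1 line are alleles of the same cells, so the 44 control libraries come from 2 lines.

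A viewpoint contacts other parts of its chromosome with a frequency that falls with genomic distance, and a region several megabases away is captured through rare ligation products. In interphase nuclei, gene-dense and gene-poor stretches of a chromosome are known to occupy separate compartments, and stretches of the same kind are known to contact each other over long distances. The region holds both kinds of stretch. It includes the peptidylarginine deiminase (Padi) cluster, the secreted phospholipase A2 (Pla2g2) cluster, the C1q complement genes and several Eph receptor genes, and part of it is orthologous to human 1p36.

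Single fragments show what was counted. Of the 3013 fragments, 24 were captured from all 12 viewpoints in control libraries, and the 10 with the most libraries among them all lay between 138.5 and 142 Mb. A stretch of 60 bases is printed for 5 of these 10, 3 within introns and 2 between genes, because each was ligated to every viewpoint in at least 1 control library. The other 5 are named after them. The strand is the plus strand of mm9, the capitals mark the HindIII site, at the centromeric end of the fragment, and the bases that follow belong to the fragment.

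Intron of Iffo2, chr4:139155376-139155435: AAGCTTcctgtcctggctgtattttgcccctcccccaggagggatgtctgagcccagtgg
Intergenic, 9.86 kb from Arhgef10l, chr4:140051883-140051942: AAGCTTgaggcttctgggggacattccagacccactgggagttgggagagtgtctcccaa
Intron of Capzb, chr4:138776890-138776949: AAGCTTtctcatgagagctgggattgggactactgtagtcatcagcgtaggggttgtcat
Intergenic, 24.1 kb from Padi1, chr4:140425827-140425886: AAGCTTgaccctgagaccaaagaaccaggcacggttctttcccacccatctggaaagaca
Intron of Tmco4, chr4:138558429-138558488: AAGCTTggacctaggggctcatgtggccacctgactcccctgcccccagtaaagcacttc

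The Iffo2 fragment, 3413 bp long, was captured in 32 of 44 control libraries, the most of any fragment in the region. In +DBl6, which did not enter the ranking, it was captured in 9 of 20 libraries from 7 viewpoints. The fragment near Arhgef10l was captured in 29 of 44 control and 10 of 20 +DBl6 libraries. The Capzb fragment, within the gene of the beta subunit of actin capping protein, was captured in 29 and 10 libraries, and the fragment near Padi1 in 29 and 11. The Tmco4 fragment was captured in 28 control libraries but in only 4 +DBl6 libraries. The other 5 of the 10 lay over Crocc, Dnajc16, Kazn and Fhad1 and near Mrto4. From +DBl6, the 10 fragments were captured at 4 to 8 viewpoints each, while the median over all 3013 fragments was 3 of 12 viewpoints. A single fragment in the region was thus rarely captured from every viewpoint, and even the most recurrent one was missing from 12 control libraries.

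At the other end, 154 fragments were captured from no control viewpoint and 113 in none of the 72 libraries. The 113 had a median length of 1060 bp against 2604 bp for all fragments of the region. Of these, 38.9% had no DpnII site (GATC), the second cut of the assay, against 10.9% of all fragments, and the part of the missing site in this was not tested. The longest stretch without a captured fragment in any library was 16.5 kb (3 fragments) in Ece1, the gene of endothelin converting enzyme. In the 44 control libraries alone it was 24.1 kb (1 fragment), and in the 8 Df libraries 44.2 kb (3 fragments) in Arhgef10l.

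Libraries held 18709 to 3722322 reads outside the 20 kb around the viewpoint (median 340463) and captured 4.61% to 40.1% of the fragments of the region (median 22.4%). The region held 9.85% to 20.3% of all captured fragments of chromosome 4 (median 14.1%), more than its 6.24% of the fragments in every library. It held 3.58% to 11.0% of the reads (median 6.40%), and its most-read fragment 0.879% to 9.43% of the region's reads. Reads carry no molecular identifiers, so intervals on these shares cover counting error only. Among library pairs of different groups and lines, 3 had log reads that correlated above 0.5 at shared fragments, taken here as a sign of shared molecules. Some pairs with a low correlation also had many fragments in common. For +DBl6 of E98 and +129 of E118 at viewpoint 10 these were 66.2% of the fragments of the smaller library (correlation 0.137). Whether such pairs share molecules was not tested. The 3 pairs above 0.5 were +DBl6 of E71 with +Bl6 of E117 at viewpoint 11 (correlation of log reads at shared fragments 0.721), Df of E71 with +129 of E117 at viewpoint 11 (0.693) and +DBl6 of E98 with +Bl6 of E118 at viewpoint 10 (0.577), while the rest of the 154 pairs stayed at or below 0.340. Reads between viewpoints 3 and 10, a stretch that Df lacks, check the labels. They were 0.0799% to 0.473% of the reads in the 8 Df libraries and 1.22% to 10.2% in the other libraries at viewpoints 1, 2, 11 and 12, except for the library labelled +129 of E117 at viewpoint 11, which had 0.807%. Comparisons of Df and +129 that rest on that library are given with and without it.

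**Figure D1:**
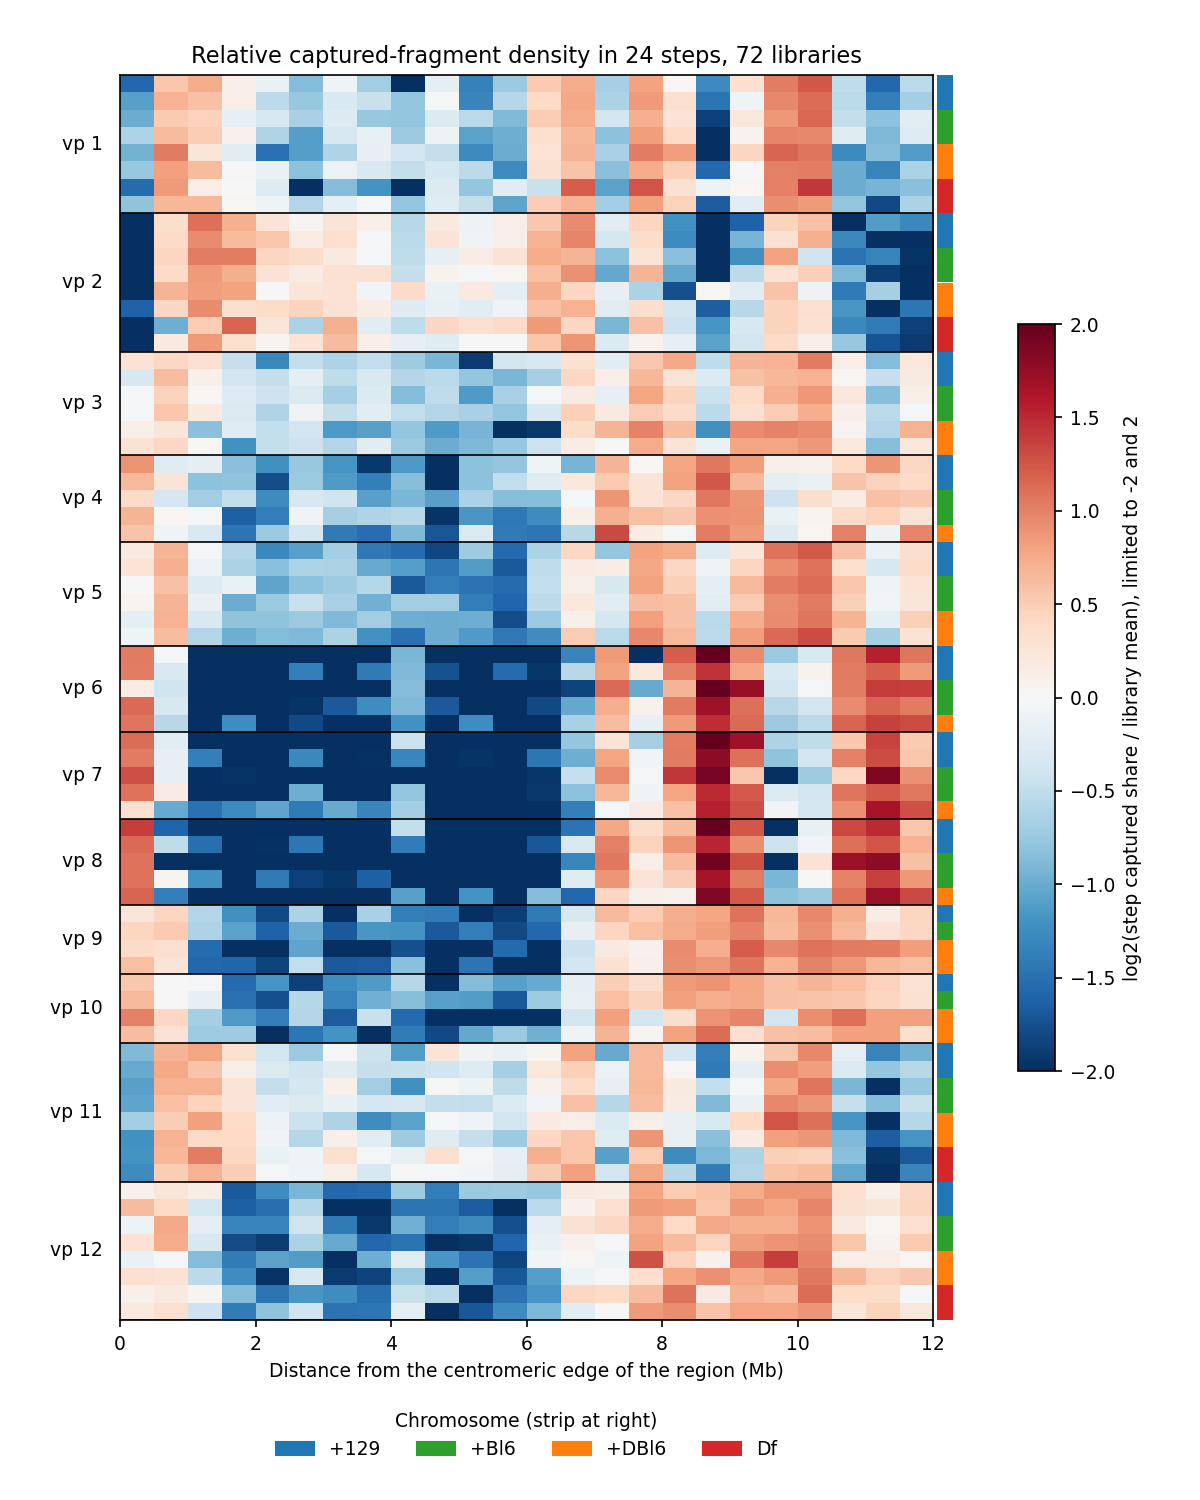
Captured-fragment density along the region in all 72 libraries, 1 row each, sorted by viewpoint (vp) and then by chromosome (strip at right). The x axis is the distance from the centromeric edge in Mb in 24 steps of 500 kb, and the colour is the log2 of the captured share of a step over the library mean, limited to -2 and 2. Rows of viewpoints 6, 7 and 8 are mostly low (blue) from 0.5 to 7 Mb and high (red) near 9 Mb and beyond 10.5 Mb, and rows of viewpoints 1, 2 and 11 are low near 9 Mb and beyond 10.5 Mb.

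To describe the region along its length, it was cut into 24 steps of 500 kb, with 93 to 164 HindIII fragments and 0 to 20 protein-coding genes each (median 10). The relative density of a step is its captured share of fragments divided by the mean of the 24 steps in the same library, so a value of 1 is the library's own average and depth cancels to a first order.

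The density along the region depended on the viewpoint. From viewpoints 6, 7 and 8, captures were concentrated from 138 to 138.5 Mb, from 139 to 140.5 Mb, from 141.5 to 143 Mb and in the first step of the region. Viewpoints 1, 2 and 11 had lower densities in all of these steps, though near or above the average from 139 to 139.5 Mb and from 140 to 140.5 Mb at viewpoints 1 and 11. They had higher ones from 131.5 to 132.5 Mb, 137 to 138 Mb and 140.5 to 141.5 Mb. These viewpoint sets were chosen after the values were seen, so the contrast between them in control libraries is a description without a test.

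The largest difference in relative density was in the step from 139.5 to 140 Mb (means 3.63 and 0.328, log2 difference 3.47). On the log2 scale the step from 132.5 to 133 Mb differed more, in the other direction (0.110 and 1.31, log2 difference -3.57). The step from 139.5 to 140 Mb holds Igsf21, an immunoglobulin superfamily gene, and Klhdc7a. In the 12 control libraries of viewpoints 6, 7 and 8 its relative density had a lowest value of 2.74, a median of 3.58 and a highest of 4.80. In the 12 control libraries of viewpoints 1, 2 and 11 these were 0.0782, 0.319 and 0.714. The sets did not overlap. In absolute terms, +129 libraries of viewpoint 7 captured 53.1% of the fragments of this step on average, and those of viewpoint 2 captured 2.65%.

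The step from 142 to 142.5 Mb holds no protein-coding gene. Its relative density was 2.25, 2.56 and 3.64 (lowest, median and highest) from viewpoints 6, 7 and 8 and 0.216, 0.395 and 0.582 from viewpoints 1, 2 and 11. The step from 132 to 132.5 Mb, over the transcriptional coactivator gene Eya3 and 12 other protein-coding genes, was the reverse. It had 0, 0.20 and 0.433 from viewpoints 6, 7 and 8 and 1.36, 1.64 and 2.15 from viewpoints 1, 2 and 11. Every library of 1 set thus lay on 1 side of every library of the other in all 3 steps, on both alleles and in both control lines.

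Over the 24 steps, the sets did not overlap in 20, with viewpoints 6, 7 and 8 above in 8 and below in 12. The 12 lower steps covered 131.5 to 133.5 Mb, 134 to 135 Mb, 135.5 to 138 Mb and 140.5 to 141 Mb. The 8 higher steps were from 131 to 131.5 Mb, 138 to 138.5 Mb, 139 to 140.5 Mb and 141.5 to 143 Mb. For comparison, the same count was made on 256 other windows of 500 kb on chromosome 4 centromeric to 131 Mb, with all values relative to the library mean over every window up to 143 Mb. There viewpoints 6, 7 and 8 lay above in 26 windows (10.2%) and below in 25 (9.77%). On that scale the region had 7 steps above (29.2%) and 14 below (58.3%). The windows outside the region lie farther from the viewpoints and hold fewer captured fragments, and the part of this in their overlap was not tested.

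The intact chromosome of the deletion lines did not enter the choice of viewpoints. Its E71 library at viewpoint 11, however, was taken to share molecules with +Bl6 of E117, which did. Its E98 libraries are part of the summed ones at viewpoints 6, 7 and 8. They had 45.1%, 50.0% and 39.5% of the smaller library's fragments in common with +Bl6 of E118. With +129 of E118 these shares were 33.3%, 42.9% and 37.2%, and whether molecules were shared was not tested. In +DBl6, with 3 summed libraries from viewpoints 6, 7 and 8 and 6 libraries from viewpoints 1, 2 and 11, the difference had the same sign as in control libraries in 24 of 24 steps. The sets did not overlap in 19 steps, 7 above and 12 below, of which 7 and 10 were also apart in control libraries. On the scale of all windows, +DBl6 had 6 steps of the region above (25%) and 16 below (66.7%). The windows outside the region had 19.9% above and 12.9% below, so the share above was near that outside. The log2 difference between the sets correlated across steps between control and +DBl6 libraries with a Spearman's rho of 0.90 (24 steps, which share base composition and fragment number). In the step of Igsf21, +DBl6 had 2.79, 2.93 and 3.61 from viewpoints 6, 7 and 8, and 0.238 and 0.338 from viewpoint 1, 1.01 and 0.320 from viewpoint 2 and 0.813 and 0.562 from viewpoint 11 in lines E71 and E98. All 3 values from inside the deleted interval exceeded all 6 from outside it.

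**Figure D2:**
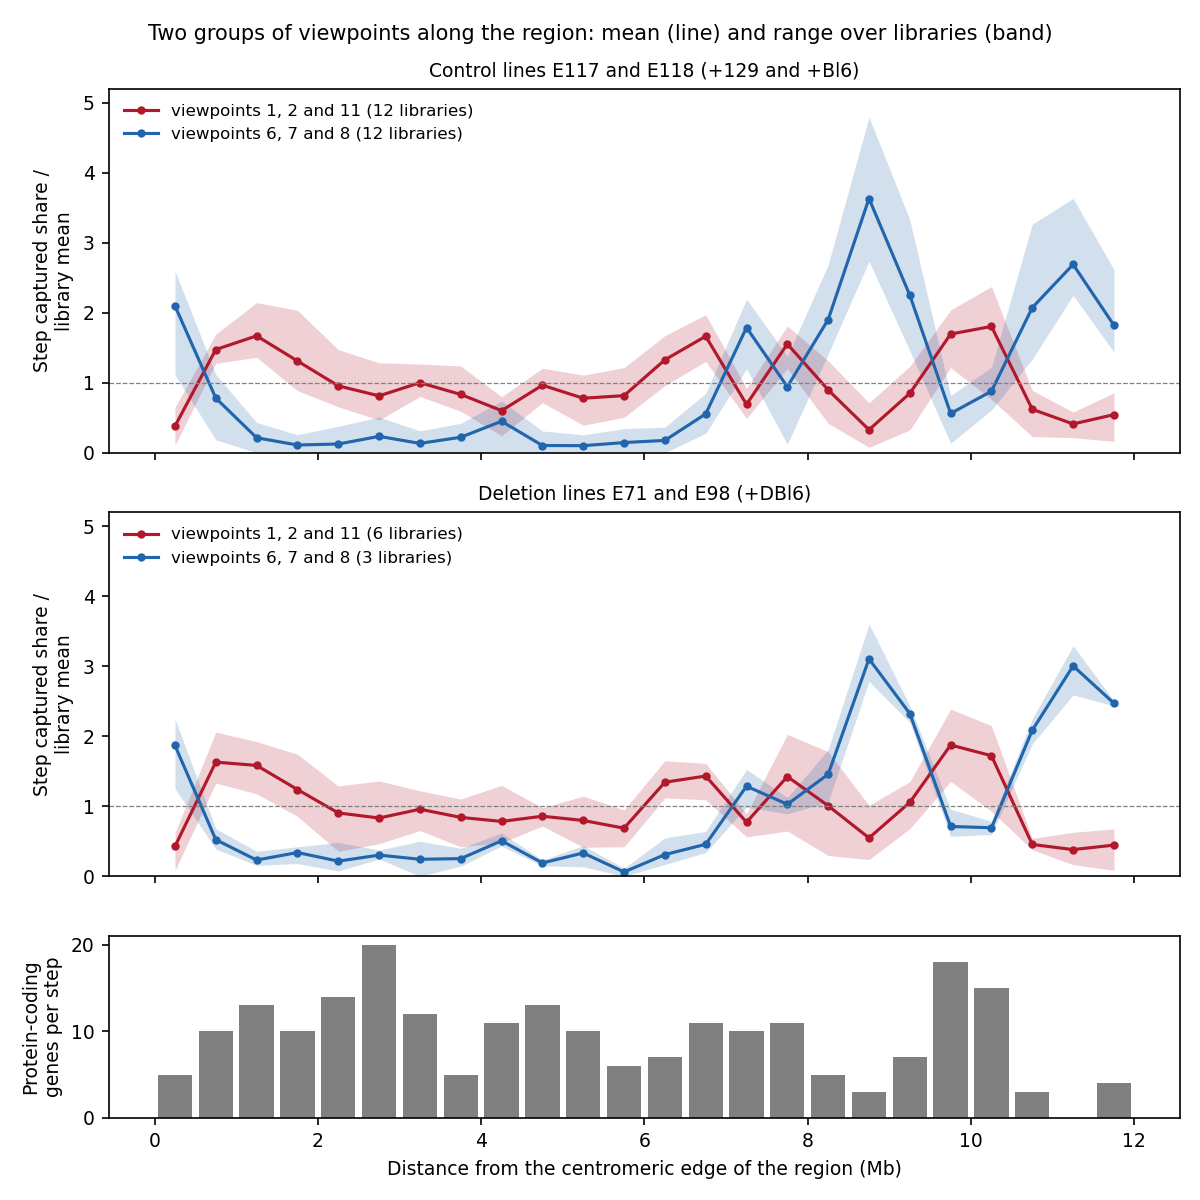
Relative captured density (captured share of a step over the library mean) against distance from the centromeric edge of the region in Mb, for viewpoints 6, 7 and 8 (blue) and 1, 2 and 11 (red). Lines are means over viewpoints and bands the range over libraries, above in control lines and in the middle in +DBl6, and the grey bars are protein-coding genes per step. The bands do not overlap in 20 of 24 steps in control lines and in 19 in +DBl6, and the blue maxima near 9 and 11 Mb stand over steps with 3 and 0 protein-coding genes.

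Depth differed between the control lines at viewpoints 6, 7 and 8, where E117 libraries captured 139 to 230 fragments of the region and E118 libraries 575 to 723. The relative density of the Igsf21 step was higher in E117 than in E118 in all 6 pairs of libraries, 3.72 to 4.80 against 2.74 to 3.45. The part of depth in that difference between lines was not tested. All 20 steps that were apart were also apart, in the same direction, without E117 (22 steps in all), without E118 (21) and without viewpoint 11 and its library that went against its label (20). Ranges of fewer libraries overlap less easily. Counted in reads in place of captured fragments, 8 steps were apart. These were the steps from 132 to 133 Mb, 136 to 136.5 Mb and 137 to 138 Mb, below, and from 139.5 to 140 Mb and 141.5 to 142.5 Mb, above, all in the same direction as before. In the Igsf21 step, read shares were 2.18, 3.77 and 5.09 times the library mean (lowest, median and highest) from viewpoints 6, 7 and 8 and 0.0501, 0.201 and 0.461 from viewpoints 1, 2 and 11. In +DBl6, read shares of this step overlapped between the sets (0.95, 3.22 and 5.54 against 0.0654, 0.243 and 1.15).

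The other 6 viewpoints differed among themselves. Across the 24 steps, the mean control profiles of viewpoints 6, 7 and 8 had a rho of 0.919 to 0.934 with each other, those of viewpoints 1, 2 and 11 of 0.711 to 0.923, and pairs from both sets of -0.666 to -0.125, with viewpoint 1 nearest to 0 (-0.136 to -0.125). Viewpoint 4 resembled viewpoints 6, 7 and 8 (0.889, 0.944 and 0.910). The remaining 51 viewpoint pairs ranged from -0.525 to 0.944. In +DBl6 the corresponding values were 0.821 to 0.928, 0.560 to 0.851 and -0.664 to -0.140. The 66 values of likeness between viewpoints had a rho of 0.959 between control and +DBl6 libraries. Viewpoints 3, 5 and 12 had their highest control density in the step from 141 to 141.5 Mb, over the transcriptional regulator gene Spen and Fhad1, as did viewpoints 1 and 11, with 1.79, 2.17 and 1.90 times the average. Viewpoint 4 had its highest value in the Igsf21 step (2.10), viewpoint 9 from 140 to 140.5 Mb over Arhgef10l and the Padi genes (2.06) and viewpoint 10 from 139 to 139.5 Mb over Pax7, a paired box transcription factor gene, and Iffo2 (1.79). The highest steps of all viewpoints but viewpoint 2, whose maximum lay from 132 to 132.5 Mb (1.98), thus fell in the telomeric 6 Mb.

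The number of protein-coding genes along the region went with this division, and so did position. The steps where viewpoints 6, 7 and 8 lay above were, except for the first of the region, in the telomeric 6 Mb. Most of those where they lay below were in the centromeric 6 Mb. The parts of gene number and position were not tested. The 8 steps where viewpoints 6, 7 and 8 lay above held a median of 4.5 protein-coding genes (0 to 10) and the 12 where they lay below a median of 10.5 (5 to 18). Across the 24 steps, the log2 difference between the sets had a rho of -0.60 with gene number and of 0.20 with GC content. The step from 138 to 138.5 Mb, with 10 genes including the phospholipase cluster, was among the higher ones, and the step from 136.5 to 137 Mb, with 6 genes, was among the lower ones, so gene number did not order all steps.

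The viewpoints were then compared by the genes around them. Within 250 kb of viewpoints 1 to 12 there were 9, 10, 8, 1, 19, 1, 0, 1, 10, 2, 22 and 14 protein-coding genes. For each library, the mean density in the 7 steps with at most 5 genes was divided by that in the 6 steps with at least 13, limits that were set after the profiles had been seen. Most of the former lay in the telomeric 6 Mb and most of the latter in the centromeric 6 Mb. The part of position along the region in this ratio was not tested. This ratio was 5.64, 6.02 and 5.91 in control libraries at viewpoints 6, 7 and 8, with 3.89 to 11.4 in single libraries. It was 2.04, 1.49 and 1.59 at viewpoints 4, 9 and 10. It was near 1 at viewpoints 3, 5 and 12 (0.875, 0.976 and 1.19), and 0.511, 0.295 and 0.509 at viewpoints 1, 2 and 11. Across the 12 viewpoints, which share cells and steps, the ratio had a rho of -0.80 with the gene number of the viewpoint in control libraries and of -0.75 in +DBl6. It had a rho of 0.18 with the GC content around the viewpoint and of 0.28 with its position. Counting genes within 100, 500 or 1000 kb gave -0.68, -0.80 and -0.60. The relation was not exact. Viewpoints 2 and 9 both had 10 genes, with ratios of 0.295 and 1.49.

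**Figure D3:**
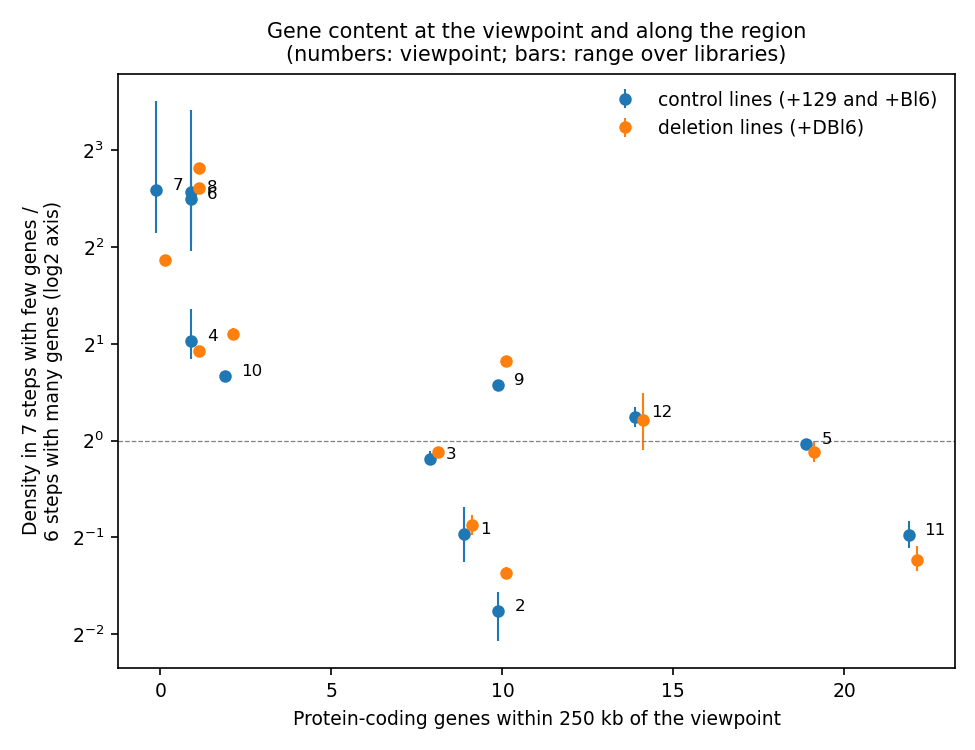
Density in the 7 steps with few genes over that in the 6 steps with many genes (y, log2 axis) against the number of protein-coding genes within 250 kb of the viewpoint (x), for control (blue) and +DBl6 libraries (orange, shifted to the right). Points are means over libraries, bars the range over libraries and numbers the viewpoint. Viewpoints 6, 7 and 8, with 0 or 1 gene, stand at 3.64 to 7.01, and viewpoint 11, with 22 genes, at 0.427 to 0.509.

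Named genes were described next. Their fragments also count in the steps they lie in, so these values are not independent of the step values. For each gene the captured share of the fragments over its body and 20 kb on either side was divided by the library mean. The control libraries of viewpoints 6, 7 and 8 were again set beside those of 1, 2 and 11 (12 each). The 12 libraries of a set come from both alleles of both control lines. An SD given for genes is thus a spread over libraries and not over independent replicates. Igsf21, the longest gene of the region, had 3.26 ± 0.686 against 0.37 ± 0.254 (SD), and the libraries did not overlap. Eif4g3, which encodes a translation initiation factor and is the gene next in length, had 0.19 ± 0.176 against 1.80 ± 0.321, also without overlap. Ephb2, Epb4.1 and Arhgef10l, the other 3 of the 5 longest genes, had 0.12, 1.09 and 2.33 from viewpoints 6, 7 and 8 and 0.81, 1.16 and 1.07 from 1, 2 and 11, with overlap.

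Of the 7 candidate genes of Monosomy 1p36 in the region, 4 were without overlap and all 4 were lower from viewpoints 6, 7 and 8. They were Wasf2, an actin regulator gene (0.0297 ± 0.0693 against 1.40 ± 0.368, SD, n = 12 each), Luzp1 (0.0680 ± 0.126 against 0.870 ± 0.325), Hspg2, which encodes perlecan (0.0396 ± 0.0924 against 1.38 ± 0.493), and Ece1 (0.208 ± 0.210 against 1.23 ± 0.398). The others overlapped between libraries, among them Spen at 0.323 against 1.88. Pdpn, which encodes podoplanin, had the opposite order with overlap, 1.80 against 0.584. The median of the list was 0.208 against 1.38. Over all 216 protein-coding genes of the region the medians were 0.317 and 1.12, with 38 genes below without overlap (17.6%), 5 above (2.31%) and 173 overlapping. The 5 above were Igsf21, Klhdc7a, Gm9867, Ubxn10 and Pla2g2c. All these values are of control libraries, on which the viewpoint sets were chosen. In +DBl6, Wasf2 (0.277 against 1.16) and Hspg2 (0.270 against 1.31) were again without overlap. For Hspg2 the margin was small, with 0.510 as the highest value against 0.518 as the lowest. Luzp1 (0.401 against 0.908) and Ece1 (0.463 against 1.11) overlapped in +DBl6.

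The gene clusters were described in the same way. The 5 Padi genes, which encode enzymes that convert arginine to citrulline in proteins, had 1.24 to 3.24 from viewpoints 6, 7 and 8 and 0.674 to 1.11 from 1, 2 and 11 (medians 2.29 and 0.863), and all 5 overlapped between libraries. The 6 secreted phospholipase genes had medians of 2.14 and 0.794, and only Pla2g2c was without overlap (2.78 ± 1.31 against 0.738 ± 0.405, SD, n = 12 each). In +DBl6, however, Pla2g2c had 0.771 from viewpoints 6, 7 and 8 and 1.24 from 1, 2 and 11, the reverse order. The 3 C1q genes had medians of 0.151 and 1.17 and the Eph receptor genes Epha2, Epha8 and Ephb2 of 0.116 and 0.866, all with overlap. Neighbouring genes of a cluster share fragments within the 20 kb margins and are not independent.

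Local peaks and gaps were sought over all viewpoints together. The local ratio of a step is its captured share over the mean of the 4 steps around it, 2 on either side, which for the outermost steps lie partly outside the region, and a median over the 44 control libraries of at least 1.3 was called a peak and of at most 0.7 a gap. Control libraries gave peaks from 142.5 to 143 Mb (1.54) and from 131.5 to 132 Mb (1.34) and gaps from 136.5 to 137 Mb (0.632) and from 133 to 133.5 Mb (0.698). Next to these limits were the step from 138.5 to 139 Mb (1.27) and the step from 132.5 to 133 Mb (0.770).

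The peak from 142.5 to 143 Mb holds Pdpn, Prdm2, a PR domain gene, Lrrc38 and Pramel1. Its local ratio was above 1 in 39 of 44 control libraries, and in libraries not used for the choice in 19 of 20 of +DBl6 (median 1.52) and 8 of 8 of Df (1.48). Both steps after it lie outside the region. Against the single step before it, its density was higher in 22 of 44 control, 11 of 20 +DBl6 and 4 of 8 Df libraries and in 0 of the 15 libraries of viewpoints 6, 7 and 8. It was thus a peak against the mean of 4 steps and not a maximum of every profile. The peak over Oprd1, the delta opioid receptor gene, Phactr4, Gmeb1 and Ythdf2, with part of Epb4.1, had a local ratio above 1 in 27 of 44 control, 16 of 20 +DBl6 (1.44) and 7 of 8 Df libraries (1.56).

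The gap from 136.5 to 137 Mb holds Cdc42, a small GTPase gene, the signalling ligand gene Wnt4, Zbtb40, Cela3b and part of Epha8. Its local ratio was below 1 in 40 of 44 control, 18 of 20 +DBl6 (0.529) and 8 of 8 Df libraries (0.729). The gap from 133 to 133.5 Mb, over Arid1a, a chromatin remodelling subunit gene, Zdhhc18, Rps6ka1, Nudc and Pigv, had one below 1 in 40 of 44 control, 15 of 20 +DBl6 (0.850) and 6 of 8 Df libraries (0.789). The step from 138.5 to 139 Mb, over Ubr4, Capzb and Tmco4, missed the limit and had a median of 1.06 in +DBl6, with 10 libraries above and 10 below. The step from 132.5 to 133 Mb, over Wasf2, Ahdc1, Wdtc1 and Fgr, had a local ratio below 1 in 33 of 44 control and 14 of 20 +DBl6 libraries. The steps that begin at 142.5 and 136.5 Mb thus had a local ratio on the same side of 1 in all but 6 of the 72 libraries each.

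Longest stretches without any captured fragment differed in the same way, but they also depend on depth. Control libraries captured 15.0%, 14.7% and 12.0% of the region's fragments on average at viewpoints 6, 7 and 8, and 21.1% to 35.9% at the others. Viewpoints 9 and 10 had 2 control libraries and the others 4. The part of depth was not tested. From viewpoint 6, no control library captured any of 76 fragments over 367 kb across Wasf2, Wdtc1 and Nudc. From viewpoint 8 the longest such stretch was 352 kb with 91 fragments across Ephb2, Epha8, Zbtb40 and the C1q genes, and from viewpoint 7 it was 240 kb across Wasf2 and Ahdc1. The longest stretches from the other 9 viewpoints were 52.9 to 139 kb. For viewpoint 2 it was 136 kb with 39 fragments and no protein-coding gene, at the end of the step from 142 to 142.5 Mb and the start of the next. In +DBl6, with fewer libraries, the longest stretches were 577, 893 and 911 kb from viewpoints 6, 7 and 8, the first across Zbtb40, Cdc42, Wnt4 and Hspg2, the second also across Ephb2, and the last across Man1c1, Tmem57 and Rhd.

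The region was then set against its neighbours. From viewpoints 1, 2, 3, 4 and 11, the captured share of fragments in the region exceeded both that from 143 to 148 Mb (1482 fragments), which lies nearer to the viewpoints, and that from 120 to 131 Mb (3096 fragments) in 4 of 4 control libraries each. At viewpoint 2 the shares were 21.1% ± 2.17 in the region, 6.78% ± 1.18 on the near side and 10.8% ± 1.80 on the far side (SD, n = 4). The 4 libraries are both alleles of both control lines and not independent replicates. From viewpoints 6, 7 and 8 the region lay below both neighbours in 4 of 4 control libraries each, for example at 14.7% ± 8.22, 19.2% ± 11.0 and 19.7% ± 11.5 at viewpoint 7, where the spread is that between a shallow and a deep line. From viewpoints 5, 9, 10 and 12 the mean control shares rose with distance, for example 24.2% on the near side, 35.9% in the region and 38.8% on the far side at viewpoint 5. Mean captures thus did not fall steadily with distance over these 3 stretches from any viewpoint. The shares are of all fragments, whether or not unique matches could reach them. The telomeric 6 Mb of the region had 3.68 to 4.84 times the captured density of the centromeric 6 Mb on average from viewpoints 6, 7 and 8, and 0.722 times at viewpoint 2.

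Df was compared with +129 to ask whether the deletion changed contacts of this region, which by linear distance lies closer to viewpoints 11 and 12 on the deleted chromosome. Averaged over viewpoints 1, 2, 11 and 12, the 24-step profiles of Df and +129 had a rho of 0.93 and Pearson's r of 0.97 (0.92 and 0.97 without +129 of E117 at viewpoint 11). The profiles of +DBl6 and +Bl6 had 0.89 and 0.97. Over all viewpoints, profiles of control and deletion lines had a rho of 0.95 and r of 0.98, with 0.833 to 0.970 at single viewpoints. Replicate lines of 1 chromosome had 0.718 to 0.970 (32 pairs) and a control and a deletion library of the 129S5 chromosome 0.736 to 0.928 (16 pairs). These are descriptions across 24 steps.

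The share of all captured fragments that lay in the region was higher in Df than in +129 at 4 of 4 viewpoints. At viewpoint 1 it was 16.4% and 18.1% in Df and 14.2% and 15.7% in +129. At viewpoint 2 it was 16.9% and 20.3% against 18.2% and 18.6%, with overlap. At viewpoint 11 it was 18.6% and 19.6% against 16.4% and 16.9%, and at viewpoint 12 it was 15.4% and 15.7% against 13.7% and 14.0%. Both Df libraries lay above both +129 libraries at viewpoints 1, 11 and 12.

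The mean ratio was 1.11-fold (log2 0.14), and the exact permutation test over lines gave p = 0.333, two-sided, the smallest p that 2 lines against 2 allow. Without viewpoint 11 the log2 ratio was 0.13, and without +129 of E117 0.12. Df lacks the deleted fragments that count in the denominator of +129. With only fragments more than 2 Mb centromeric of viewpoint 1 in the denominator, the log2 ratio was 0.20. On the intact chromosome the share was lower in +DBl6 than in +Bl6 at 9 of 12 viewpoints, with a log2 ratio of -0.05 (exact permutation p = 0.333). With the centromeric denominator this ratio turned to 0.06. Between +129 and +Bl6 the ratio was 1.00 (exact permutation p = 1, where 0.5 is the smallest possible).

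**Figure D4:**
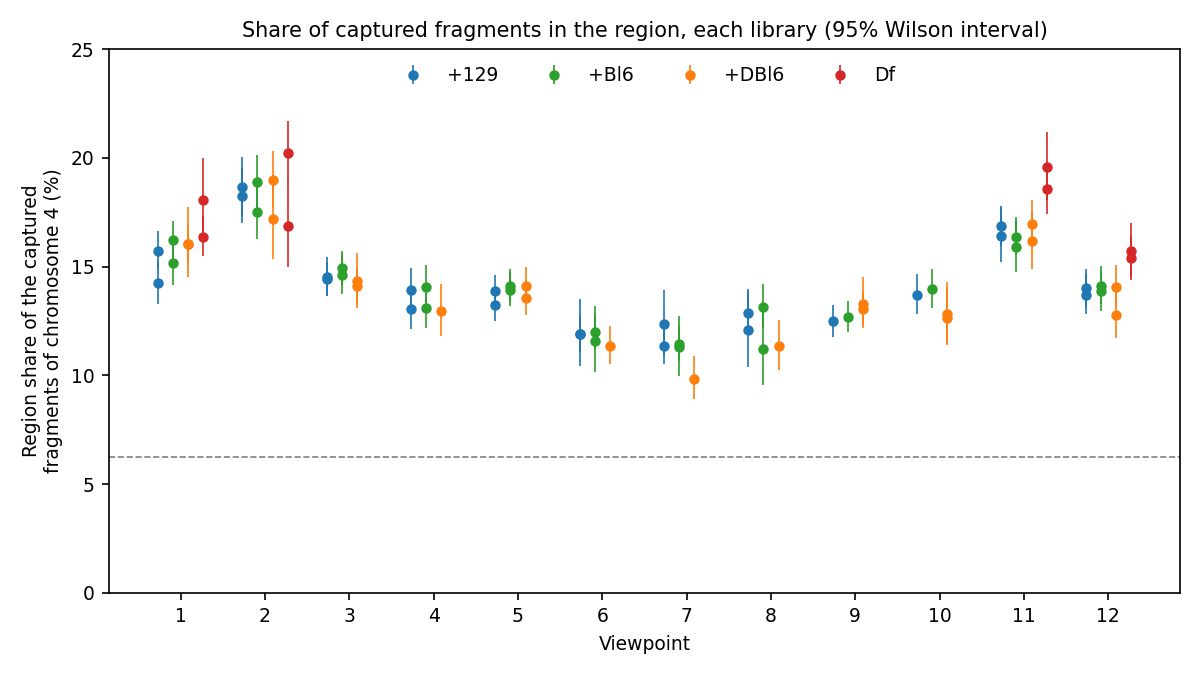
Share of the captured fragments of chromosome 4 that lie in the region (y, percent) for each library at each viewpoint (x), coloured by chromosome, with 95% Wilson intervals for counting error. The dashed line is the region's share of all fragments, 6.24%. All libraries stand above it, the medians are highest at viewpoint 2 and lowest at viewpoints 6, 7 and 8, and Df (red) stands above +129 (blue) at viewpoints 1, 11 and 12.

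Single steps were tested with edgeR's quasi-likelihood test in 500 kb windows over the whole chromosome, with Benjamini-Hochberg adjustment over all windows and viewpoints of a comparison and a threshold of 0.05. For Df against +129, 0 of 96 steps of the region passed on reads, where 1.63% of all 1102 windows did, and 0 of 96 on captured fragments, where 1.3% of 1073 did. At an unadjusted p under 0.05 there were 3 steps on reads (2 higher and 1 lower) and 11 on captured fragments (10 higher and 1 lower). These were 3.13% and 11.5% of the steps, against 6.17% and 7.27% of all windows. The smallest edgeR adjusted p was 0.191, for the step from 135 to 135.5 Mb at viewpoint 11. It held 8.54 and 8.94 of every 1000 captured fragments in Df and 3.65 and 5.96 in +129. Without +129 of E117 at viewpoint 11, its edgeR unadjusted p was 0.0763 and its adjusted p 0.742. The smallest edgeR adjusted p in the region was then 0.223, and 9 steps had an unadjusted p under 0.05.

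At viewpoint 2, the higher ones among the 11 were the 3 steps from 139 to 140.5 Mb and the step from 141.5 to 142 Mb. The step of Igsf21 held 2.89 and 3.75 of every 1000 captured fragments in Df against 1.28 and 0.552 in +129, a log2 difference of 1.96 (SE 0.731, edgeR unadjusted p = 0.0112, adjusted p = 0.342). On reads the log2 difference of this step was 2.80 with a wider error (SE 1.95, edgeR unadjusted p = 0.162). In an alternative setting with windows of 1 Mb, the window from 139 to 140 Mb passed on captured fragments (log2 difference 1.43, edgeR adjusted p = 0.0119). The share of all 1 Mb windows that passed is not reported here. In relative density, the Igsf21 step of viewpoint 2 was 0.440 and 0.479 in Df and 0.178 and 0.0782 in +129. It was 1.01 and 0.320 in +DBl6 and 0.220 and 0.144 in +Bl6. All 4 libraries of the deletion lines were thus above all 4 of the control lines, on both alleles, and the highest of them, 1.01, was below 2.74, the lowest control value of viewpoints 6, 7 and 8. The 2 alleles of a line come from the same cells. The step was near the floor at viewpoint 2, where on average 2.65% of its fragments were captured in +129 and 7.08% in Df.

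At viewpoint 11 the steps at an unadjusted p under 0.05 were those from 133.5 to 134.5 Mb, 135 to 135.5 Mb and 137 to 137.5 Mb, higher in Df, and from 142 to 142.5 Mb, lower in Df (log2 difference -0.94, SE 0.395, edgeR adjusted p = 0.385). Without +129 of E117, only the last of these kept an unadjusted p under 0.05 (log2 difference -1.13, SE 0.424, edgeR adjusted p = 0.258). The steps from 135.5 to 136 Mb and from 136.5 to 137 Mb then also had one. The remaining steps were from 136 to 136.5 Mb at viewpoint 1 and from 135 to 135.5 Mb at viewpoint 12. The captured density of the telomeric 6 Mb over that of the centromeric 6 Mb at viewpoint 11 was 0.742 and 0.887 in Df and 1.01 and 1.19 in +129, the first of these from the library that went against its label. It was 1.12 and 1.14 in +DBl6 and 1.11 and 1.16 in +Bl6. Both Df libraries were below all other libraries of viewpoint 11, at 0.740 times the +129 mean (exact permutation p = 0.333, two-sided, the smallest that 2 against 2 allow). Against +129 of E118 alone the ratio was 0.686, with no test. At viewpoints 1, 2 and 12 the ratio of means was 1.05, 1.08 and 0.945. This quantity was chosen after the profiles had been seen, and Df of E71 was taken to share molecules with +129 of E117 at viewpoint 11.

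**Figure D5:**
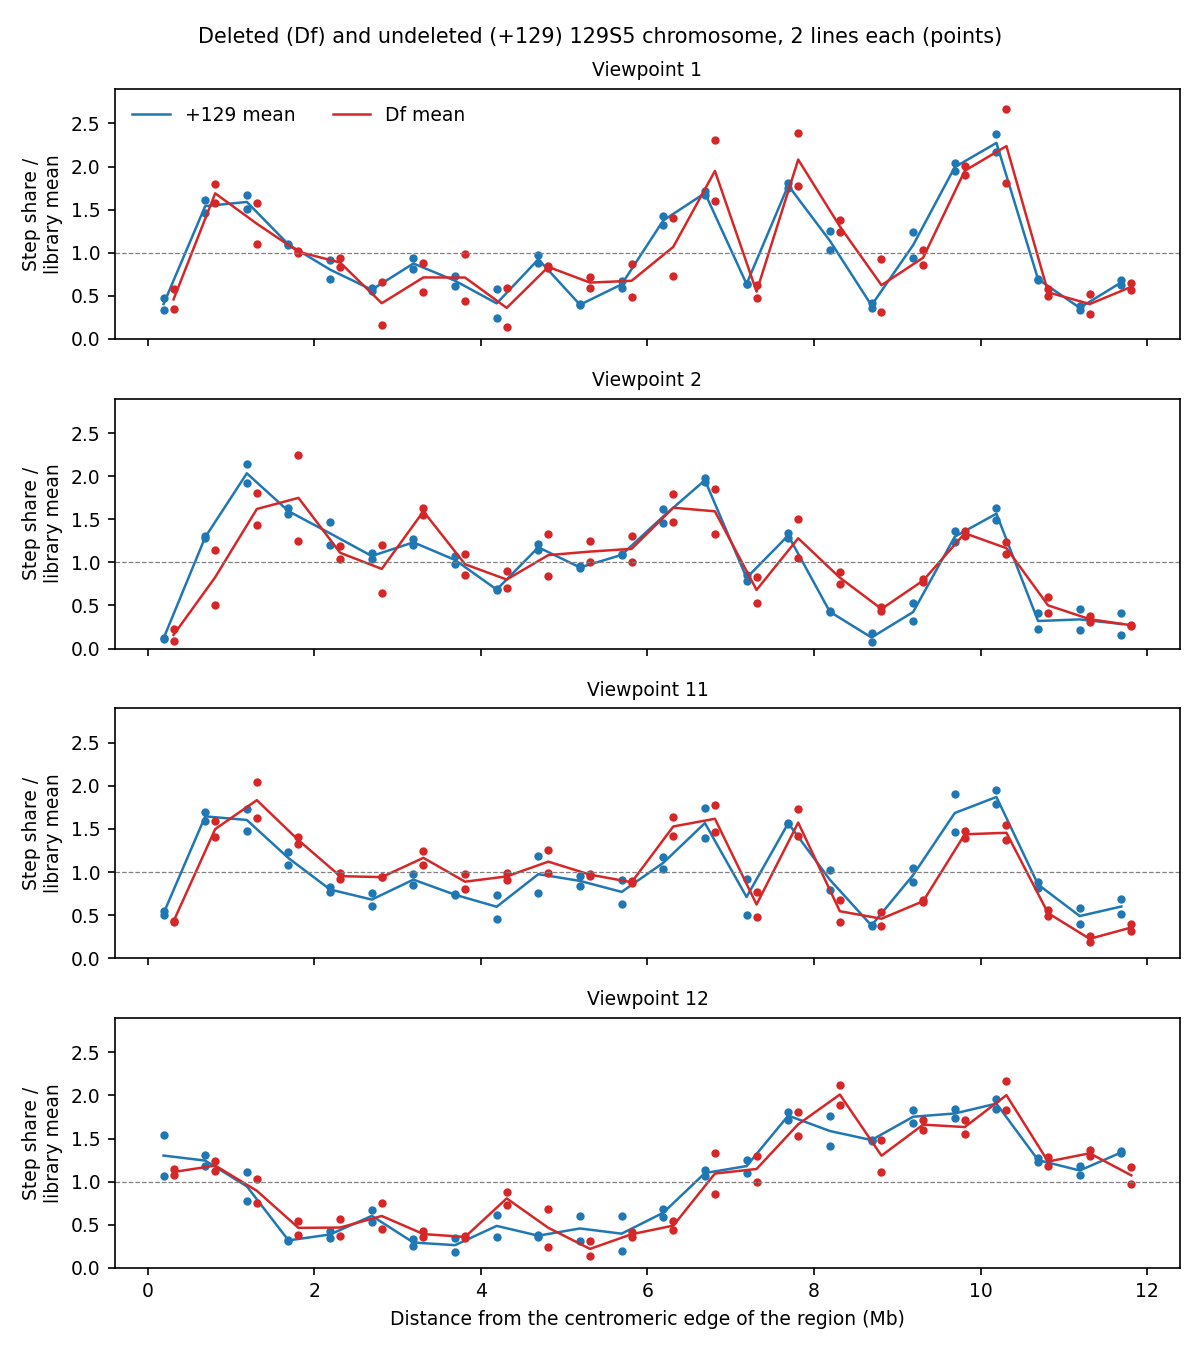
Relative captured density (captured share of a step over the library mean) of Df (red) and +129 (blue) against distance from the centromeric edge of the region in Mb, at viewpoints 1, 2, 11 and 12. Points are the 2 lines of each chromosome and lines their means. The mean profiles of both chromosomes over the 4 viewpoints had a rho of 0.93, and at viewpoint 2 the Df points near 9 Mb (0.440 and 0.479) stand above the +129 points (0.178 and 0.0782).

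On the intact homologue, +DBl6 against +Bl6 gave 0 of 281 steps on reads, where 0.338% of 3252 windows passed, and 0 of 273 on captured fragments, where 0.128% of 3127 passed. At an unadjusted p under 0.05 there were 8 steps on reads and 9 on captured fragments (6 higher and 3 lower), which were 2.85% and 3.30% of the steps against 6.33% and 4.38% of all windows. Between the undeleted chromosomes of control cells, +129 against +Bl6, 0 of 236 steps passed on reads (0.0346% of 2889 windows) and 0 of 232 on captured fragments (0% of 2821). There 8 and 4 steps had an unadjusted p under 0.05, 3.39% and 1.72% against 4.36% and 1.52% of all windows. The median absolute log2 difference of steps on captured fragments was 0.24 between Df and +129, 0.24 between +DBl6 and +Bl6 and 0.14 between +129 and +Bl6, with median standard errors of 0.31, 0.34 and 0.29. Each median difference was thus smaller than its median standard error. Whether differences of that size could be detected at this depth with 2 lines a group was not tested.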

How the data were processed

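Allele-specific PE-4Cseq libraries of chromosome 4 were analysed. The authors assigned read pairs to an allele by a polymorphism in the viewpoint read, aligned the other read to HindIII fragments of mm9 with Bowtie (version not given in the sources used here), kept unique matches and summed them. Each deposited table lists raw counts of reads for the HindIII fragments of chromosome 4. Another 16 deposited tables list the authors' own differential regions and were not used. Fragment ends matched 48319 of 48319 HindIII sites of the NCBIM37 reference, which gave genes and sequences.

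Groups, viewpoints and lines came from the labels. The region, gene lists and tests were chosen with earlier results of these data known. Reads within 20 kb of the viewpoint fragment were left out, as were libraries under 10000 reads. Replicate pairs whose log reads correlated above 0.9 at shared fragments over 5 Mb away were summed (6 pairs, 0.938 to 0.972, other pairs at most 0.286). The correlation was taken as a sign that they hold the same molecules. Where 1 library, summed or left after a removal, forms an arm, its spread was taken to be that of the other arm. Lines E71 and E117 were purified with 1 kit and E98 and E118 with another according to the methods, so kit and line cannot be told apart within a group.

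Windows of 500 kb with at least 10 reads, or 3 captured fragments, in at least 50% of libraries were tested per viewpoint by edgeR's quasi-likelihood test (version 4.0.16, R 4.3.3, TMM normalization; functions glmQLFit, glmQLFTest) and, as an alternative, DESeq2 1.42.0. The fits were tested on simulated data. Line means of region shares were compared by exact permutation. Other values were computed in Python 3.11.15. The +129 and +Bl6 libraries of 1 line come from the same cells and are paired by line. Their deviations in captured fragments correlated at 0.0905 to 0.564, and the paired fit also called 0 steps. Named genes were those of the 3 highest and 3 lowest steps by local ratio, those at the 10 most recurrent fragments, the 5 longest genes and 5 gene lists. Genes with non-overlapping libraries were named after their values were seen, and some genes are not reported here. Libraries held 64058 to 3969613 reads on chromosome 4, and p-values measure the spread between 2 lines.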

Additional observations from a re-analysis of the deposited data

How the results depend on the processing

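The 6 window comparisons gave 0 steps in 76 of 84 alternatives. The shares of all windows of the chromosome that passed in these alternatives are not reported here. For Df against +129, 1 step passed on reads without Df replicate 2 (138 to 138.5 Mb at viewpoint 2; leave-out range 0 to 1), and 1 window on captured fragments with 1 Mb windows. For +DBl6 against +Bl6 on reads, DESeq2 called 4 (2 higher and 2 lower, at viewpoints 6 and 7). For +129 against +Bl6 on reads, DESeq2 and 1 Mb windows called 1 each and leave-outs 0 to 1, at 135 to 136 Mb from viewpoint 5. With all libraries as labelled 16 passed, 15 of them at viewpoint 9 where replicates were taken to share molecules. With replicate number as a block, 0 steps passed in every comparison. Same-numbered libraries of Df and +129 correlated at -0.0282 to 0.278 in their deviations on captured fragments, and those of +DBl6 and +Bl6 at -0.0962 to 0.243. On reads the ranges were -0.0586 to 0.517 (median 0.0347) and -0.165 to 0.524 (median -0.0116), with both highest values at viewpoint 11. Same-numbered lines also shared a purification kit. In the main fits of these 2 comparisons the numbers were not taken as pairs.

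The ratio of the region share kept its direction for Df against +129 (log2 0.0551 to 0.199 over 11 alternatives). It turned to 0.0629 for +DBl6 against +Bl6 with the centromeric denominator. For +129 against +Bl6, near 0, it turned to 0.0160 with at least 5 reads, 0.00863 with the centromeric denominator and 0.00164 with thinned reads, and ranged from -0.0260 to 0.0265 in leave-outs. The likeness of control and deletion profiles stayed at 0.925 to 0.986 over 10 alternatives. Chosen after seeing the data were the following and the fits without +129 of E117 at viewpoint 11, which also called 0 steps. Peaks and gaps numbered 2 in place of 4 in only +129 libraries. Fragments captured from all viewpoints numbered 3 with at least 5 reads, 1 in only +129, 4 in only +Bl6 and 0 in only +DBl6 libraries, against 24. Steps apart numbered 8 on reads. With 2 lines a group, exact tests could not go below 0.333, and from viewpoints 6, 7 and 8 a step at 0 captures in E117 libraries rests on 139 to 230 captured fragments in the whole region.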

Other observations

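Df libraries also exist for viewpoints 3 to 10, which the deleted chromosome lacks, and they entered no comparison. These 16 libraries held 24 to 414 reads in the region (median 114) on 15 to 250 fragments. Of these fragments, 42.7% to 100% (median 80.1%) were also captured in the +DBl6 library of the same line and viewpoint, which captured 7.37% to 32.6% of all fragments of the region. At viewpoints 6, 7 and 8 of line E71 all 16, 15 and 28 fragments were shared. The lowest share, 42.7% of 157 fragments, was at viewpoint 10 of line E98.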
